A study of Mus musculus with 8 samples.

Results

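Broad H3K4me3 domains of the wild-type testis that stayed broad, or nearly so, in testes without H3f3b are described here. The mark H3K4me3 (histone H3 trimethylated at lysine 4) was profiled by ChIP-seq in testis tissue of adult C57BL/6 mice that were H3f3b WT/WT (WT 66 and WT 74) or H3f3b null (KO 67 and KO 73). The series holds 8 samples, of which the 4 H3K4me3 libraries, 2 per genotype, each have a list of enriched regions, and the 4 input libraries were not analysed here. Nothing in the labels says that a number is a separate animal, so the spread between 2 libraries may be technical. The labels do not say how the null allele was made, and whole testis mixes germ cells of all stages with somatic cells. In such a mixture, a mark lost from a share of the cells and a weaker mark in all cells cannot be told apart.

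Regions of the 4 lists on chromosomes 1 to 19 were merged where they overlapped or touched, which gave 16000 union regions. The covered length of a union region in a library is the summed length of that library's regions inside it. A broad domain had a covered length of at least 3000 bp in both WT libraries, and 713 union regions met this. A retained domain was a broad domain whose mean KO covered length was at least 0.8 of its mean WT covered length, which left 176 domains, 24.7% of the broad ones and 1.1% of all union regions. The remaining 537 broad domains are called reduced. The choice used the covered lengths of all 4 libraries, so every KO to WT comparison of length, edges, pieces or scores below is a description of chosen domains and was not tested. Intervals of shares are 95% exact binomial (Clopper-Pearson) ones. They measure counting error alone and treat neighbouring regions as independent.

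H3K4me3 is laid down at active and poised promoters by SET1 and MLL methyltransferases, and most promoters carry a peak of a few nucleosomes around the start of transcription. Broad domains, in which the mark runs on into the gene, are known from genes that define a cell's identity and from highly transcribed genes. H3f3b is one of the genes for H3.3, a variant of H3 that can enter chromatin at any time of the cell cycle and that gathers at active promoters. In the testis H3.3 enters chromatin during meiosis, and later most histones of spermatids give way to protamines. No gene positions or genome sequence of the build of the files, mm9, were used here, so domains are given by their mm9 coordinates, without gene names or bases, and the tissue label was not checked against marker genes.

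By the rule, the retained domains had a KO to WT length ratio of at least 0.8, which sets a floor under their median ratio. Their covered length ran from 3003 to 6839 bp in WT 66 (median 3507) and from 3001 to 6728 bp in WT 74 (median 3407.5). It ran from 2304 to 5854 bp in KO 67 (median 3100.5) and from 2348 to 5919 bp in KO 73 (median 3145.5). The KO to WT ratio had a median of 0.887, with the middle part of the domains (25th to 75th percentile) between 0.847 and 0.927. Over the 9520 union regions found in all 4 libraries the median ratio was 0.883, and 69.5% of them had a ratio of at least 0.8. That set leaves out regions absent from a KO library, whereas the broad domains were picked by WT length alone. Over the 12226 union regions found in both WT libraries, the median ratio was 0.827 and 54.4% reached 0.8, against 24.7% of the broad domains. The reduced domains had a median of 0.599, from a median of 3886 and 3816 bp in WT 66 and WT 74 to 2219 and 2391 bp in KO 67 and KO 73.

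By unscaled length, most retained domains were still shorter in the null testes than in both WT libraries. Both KO lengths lay below both WT lengths in 123 of 176 (69.9%), the ranges overlapped in 52, and both KO lengths lay above both WT lengths in 1. Over all broad domains both KO lengths lay below both WT lengths in 91.4%. The share was 54.8% over the union regions found in both WT libraries and 47.6% over those found in all 4 libraries. A ratio of at least 0.9 was found in 76 retained domains, and a ratio of at least 1 in 8. After lengths were scaled by library medians, the median ratio was 1.04 in the 176 domains and 1.03 over the regions found in all 4 libraries. Both KO lengths then lay below both WT lengths in 6 of the 176 and above them in 54. They lay below in 19.2% of the regions found in all 4 libraries. The medians were those of the regions found in all 4 libraries, so the scaling itself brings the ratio of these regions near 1. The turn in direction is thus no result about the domains. All other lengths here are unscaled. Retention by this rule therefore does not mean an unchanged length, nor a length of 3000 bp in the null testes. The length stayed at or above 3000 bp in both KO libraries in 87 of the 176 domains (18.8% of all broad domains did so), in 1 KO library in 47, and in neither in 42.

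**Figure D1:**
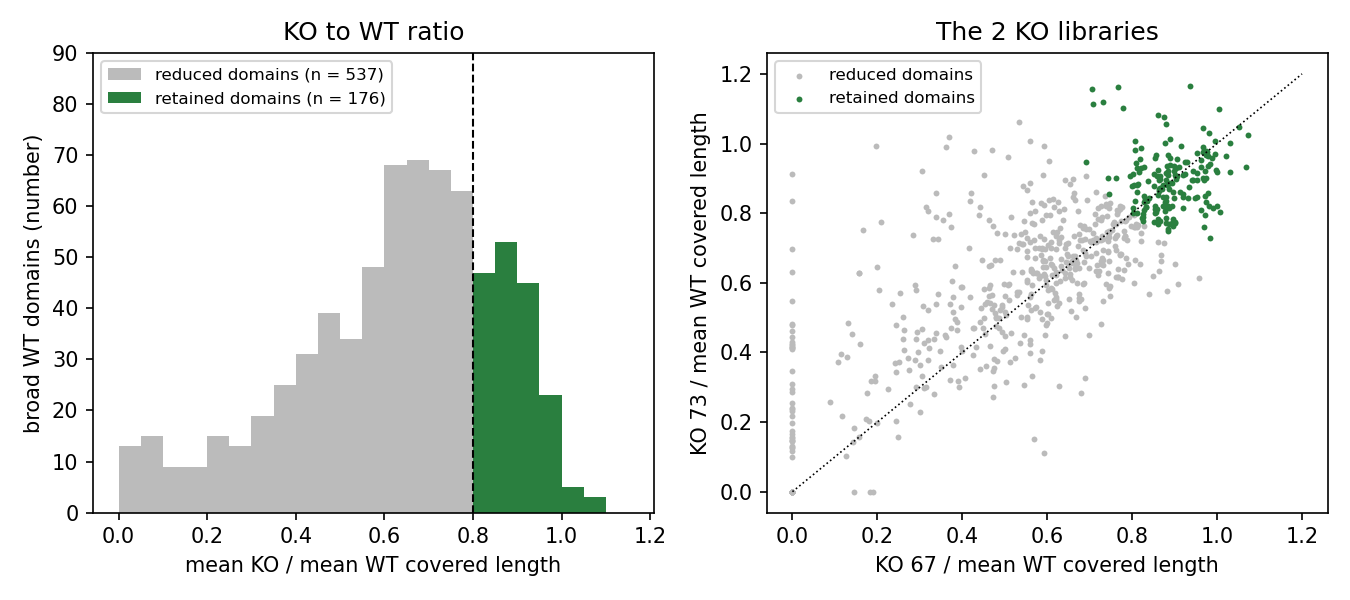
Left, number of broad WT domains by the ratio of mean KO to mean WT covered length, with the 176 retained domains in green, the 537 reduced ones in grey and the threshold of 0.8 dashed. Right, the covered length of KO 67 (x) against that of KO 73 (y), each over the WT mean, 1 point per domain. The ratios form 1 continuous range with no gap at the threshold, and 50 reduced domains sit at 0 for KO 67 against 15 for KO 73.

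The ratio has no break at the threshold. A ratio from 0.8 to below 0.85 was found in 47 domains and one from 0.75 to below 0.8 in 63. Just inside lay chr8:72424576-72427876 with a ratio of 0.8006, chr16:55972458-55975873 with 0.8007 and chr8:127419482-127423788 with 0.802. Just outside lay chr17:29168490-29171786 with 0.7997, chr12:81210656-81218300 with 0.7993 and chr5:15124682-15128483 with 0.7985. The domain on chromosome 12 shows how close to the threshold a very wide domain can fall. Its WT lengths were 7602 bp (WT 66) and 7518 bp (WT 74), its KO lengths 5228 bp (KO 67) and 6858 bp (KO 73), and by KO 73 alone it would have been retained.

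The width threshold also cut through a dense part of the lists. The smaller WT length was under 3100 bp in 33 retained domains, and 38 further union regions had a ratio of at least 0.8 and a smaller WT length from 2900 to 2999 bp. The nearest inside were chr16:44138147-44141334 at 3001 bp, chr11:69747468-69750727 at 3003 bp and chr15:36537130-36540486 at 3006 bp. The nearest outside were chr12:72115380-72118809 at 2998 bp, chr4:129010759-129014235 at 2997 bp and chr11:93745416-93749066 at 2986 bp.

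The widest retained domains lay on chromosomes 17, 19, 9, 2 and 8. The first, chr17:71197200-71204129, had lengths of 6839 bp (WT 66), 6728 bp (WT 74), 5854 bp (KO 67) and 5901 bp (KO 73). Below, WT lengths are given as WT 66 then WT 74, and KO lengths as KO 67 then KO 73. The next, chr17:34253785-34260664, had WT lengths of 6701 and 6497 bp and KO lengths of 5717 and 5919 bp. Both lost more of their left end than of their right end, by the mean of the KO libraries against the mean of the WT libraries: 621 against 285 bp in the first and 757 against 24 bp in the second. Left and right are by coordinate, since the strand of any gene there was not used.

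In chr19:5798571-5804918 the KO libraries were less alike, with 4961 bp in KO 67 and 5648 bp in KO 73 against 6134 and 6249 bp in WT. The domain chr9:108467871-108473577 had WT lengths of 5347 and 5707 bp and KO lengths of 4848 and 4451 bp. The domain chr2:76509086-76514454 measured 5345 and 5369 bp in WT, with left edges 20 bp and right edges 4 bp apart, and 4749 and 4372 bp in KO. Its KO loss was larger at the left, with 677.5 bp there and 119 bp at the right. On the same chromosome chr2:68402441-68407843 had WT lengths of 5403 and 5075 bp and KO lengths of 4845 and 4775 bp, with a ratio of 0.918, the highest of the 8. Its edges lay 189 bp (left) and 240 bp (right) further in. These shifts were 435 and 452 bp in the chromosome 19 domain and 554 and 323.5 bp in chr9:108467871-108473577. In chr8:87954804-87960809, described below, they were 145.5 and 713.5 bp. The larger shift was thus not always at the left.

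The remaining 2 of the 8 widest domains were broken by gaps. In chr9:56919481-56925735 the WT libraries had 1 unbroken region of 6211 and 5797 bp, and both KO libraries had 2 regions around a central gap. The gap spanned 737 bp in KO 67 (chr9:56922072-56922808) and 1113 bp in KO 73 (chr9:56921743-56922855), and the pieces measured 2297 and 2656 bp in KO 67 and 2262 and 2520 bp in KO 73. This domain was the only one of the 176 that was whole in both WT libraries and split in both KO libraries, and it was singled out after its values were seen. Its outer edges moved inward by 27 bp at the left and 184.5 bp at the right, so most of its fall from a mean of 6004 ± 293 bp to 4867.5 ± 121 bp (SD, n = 2 each) was the gap. In chr8:87954804-87960809 the gap was present in WT 74 (500 bp) and KO 67 (615 bp) and absent from WT 66 and KO 73, so it did not follow the genotype.

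**Figure D2:**
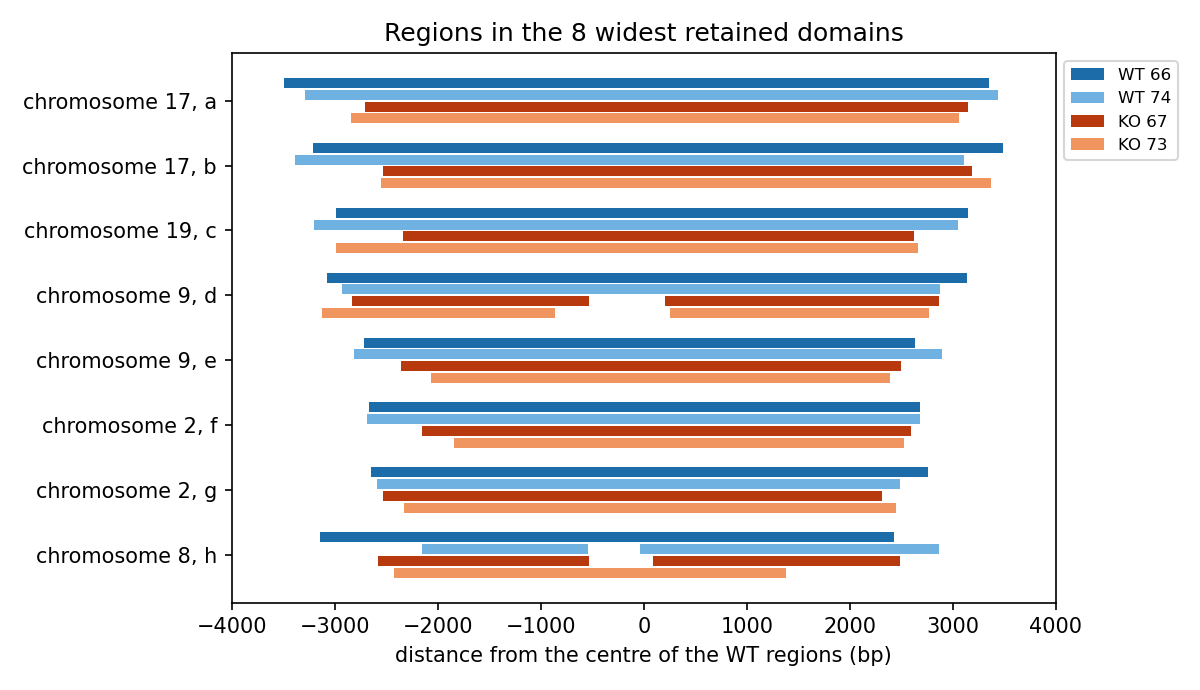
The regions called in each library in the 8 widest retained domains, drawn as bars against the distance in bp from the centre of the WT regions, from the longest mean WT length (a, chromosome 17) to the shortest (h, chromosome 8). In domain d both KO libraries show a central gap that neither WT library has, and in domain h the gap appears in 1 library of each genotype.

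Gaps were uncommon among the retained domains. Every library had a single region, of whatever length, in 160 of 176 (90.9%), against 322 of the 484 reduced domains found in all 4 libraries. A further 53 reduced domains had no region in a KO library. Of the 16 split domains, 8 were split in a KO and in no WT library, 5 in a WT and in no KO library, and 3 in both genotypes. KO 73 had 2 regions in 8 retained domains, WT 74 in 6, and KO 67 and WT 66 in 4 each. The 22 gaps ran from 500 to 1113 bp, with a median of 614 bp. In the reduced domains 2 or more regions were found in 69 domains in KO 67 and 119 in KO 73, against 38 and 46 in WT 66 and WT 74.

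In 8 retained domains the mean KO length was at least the mean WT length, and the genotypes overlapped in 7 of them. The highest ratio, 1.05, belonged to chr11:77795134-77798720, with WT lengths of 3072 and 3253 bp and KO lengths of 3175 and 3475 bp. In chr8:96333623-96337945 both KO libraries, at 4198 and 4181 bp, exceeded WT 66 at 3803 bp and WT 74 at 4175 bp. It was the single domain whose KO lengths both lay above both WT lengths (0.14% of all broad domains and 4.66% of the union regions found in all 4 libraries did so). The margin over WT 74 was 6 bp, and WT 66 alone was split there by a gap of 519 bp.

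In chr9:62188399-62192615 the libraries paired across the genotypes. WT 66 covered 3938 bp and KO 73 covered 4118 bp in 1 region, whereas WT 74 covered 3136 bp and KO 67 covered 3311 bp in 2 regions each. In chr1:10027109-10030798 the lengths were 3562 and 3180 bp (WT) and 3613 and 3452 bp (KO), a ratio of 1.05. Both KO libraries exceeded the WT mean there, while WT 66 lay between them.

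The other 4 domains at or above 1 differed between the genotype means by less than between the WT libraries. The domain chr18:39648360-39651836 had WT lengths of 3451 and 3103 bp and KO lengths of 3375 and 3282 bp. In chr11:69222314-69225781 the lengths were 3468 and 3120 bp (WT) and 3228 and 3398 bp (KO). The domain chr8:87547610-87551948 had WT lengths of 3650 and 3409 bp and KO lengths of 3416 and 3682 bp, and chr5:115222486-115226162 had WT lengths of 3677 and 3192 bp and KO lengths of 3420 and 3459 bp.

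The KO libraries measured most retained domains alike. The shorter KO length was at least 0.9 of the longer in 120 of 176 domains, and the shorter WT length in 131. Of the 9520 union regions found in all 4 libraries, 4130 reached this in KO and 4344 in WT. Those regions were narrower, with a median of 1654 bp in WT 66. The rule asks for a high mean KO length, which by itself favours domains that are short in neither KO library. KO 73 was the longer in 82 domains and KO 67 in 93, with 1 tie. In the reduced domains KO 73 was the longer in 334 of 537 and tied in 15. In the 5 domains in which the KO libraries were most unlike, KO 73 had the longer region. If a step of the score is 1 tag and the lists were scaled alike, which is not stated, KO 67 was sequenced 4.46 times as deeply as KO 73, and the part of depth in these differences was not tested.

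The largest such difference was in chr11:94850573-94854716, with 2436 bp in KO 67 and 3992 bp in KO 73, around WT lengths of 3601 and 3302 bp. Here both WT libraries had a gap (525 and 558 bp) that KO 73 bridged, and KO 67 held the right part only. In chr5:143576531-143580830 the pattern was the same, with 2641 bp in KO 67, 4006 bp in KO 73, 3231 and 3660 bp in WT, and a gap in both WT libraries. These were the 2 retained domains that were split in both WT libraries and in no KO library. KO 67 was unsplit there because it lacked the left part, so only KO 73 bridged the gap.

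In chr2:120674470-120679133 KO 67 covered 2535 bp and KO 73 3996 bp, with 3859 and 3313 bp in WT. In chr11:113610071-113614758 the values were 2679 and 4097 bp in KO against 3391 and 3938 bp in WT. In chr10:41994756-41998480 they were 2600 and 3685 bp in KO against 3443 and 3243 bp in WT. In each of these domains KO 67 lay below both WT libraries and KO 73 above the WT mean, so their ratios of 0.911 to 0.94 rest on KO 73. Of the 176 retained domains, 10 had a KO 67 length and 22 a KO 73 length under 0.8 of the WT mean, and 144 reached 0.8 in each KO library.

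The ratios of 1 KO and 1 WT library were also set against those of the other pair, as a description. The pairs are made of the same lengths that the rule used, and both WT libraries took part in picking the 713 broad domains. Of the 713 broad domains, 181 had a KO 67 length of at least 0.8 of WT 66. Of these, 139 (76.8%) also had a KO 73 length of at least 0.8 of WT 74, against 94 of the other 532 (17.7%) and 32.7% of all broad domains. In the reverse direction, 139 of the 233 domains picked by KO 73 and WT 74 (59.7%) were retained by KO 67 and WT 66, against 42 of the other 480 (8.75%). With the WT libraries exchanged, 121 of 194 domains picked by KO 67 and WT 74 (62.4%) were retained by KO 73 and WT 66, where 28.6% of all broad domains were. The 2 ratios had a Pearson r of 0.724 across the 713 domains in the first pairing and 0.716 in the second. Domains are not independent replicates and each pair has 1 library per genotype, so these shares and correlations carry no test over samples.

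Both ends of the retained domains lay further inward in KO at the median, by unscaled position. The left edge lay a median of 205 bp and the right edge a median of 178 bp further in, by the mean of the KO libraries against the mean of the WT libraries. The same edge differed by a median of 143 bp between the WT libraries and 121.5 bp between the KO libraries. These gaps are between single libraries and have no sign, so they cannot be set directly against the shifts. Both mean edges lay further inward in 137 of the 176 domains, 1 edge in 36 and neither in 3. On the side with the larger shift, the median was 282.75 bp, and on the other side 85.25 bp. In the 484 reduced domains found in all 4 libraries, these medians were 1005.5 and 325 bp.

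Counted by edges that lay further inward in both KO than in both WT libraries, 56 retained domains had 2 such edges, 85 had 1 and 35 had none. Over all broad domains found in all 4 libraries, 57.3% had 2 such edges and 93% at least 1. The left edge was such an edge in 96 retained domains and the right edge in 101. The counts of the left and right sides were thus close. An edge lay further out in both KO than in both WT libraries in 7 retained domains.

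**Figure D3:**
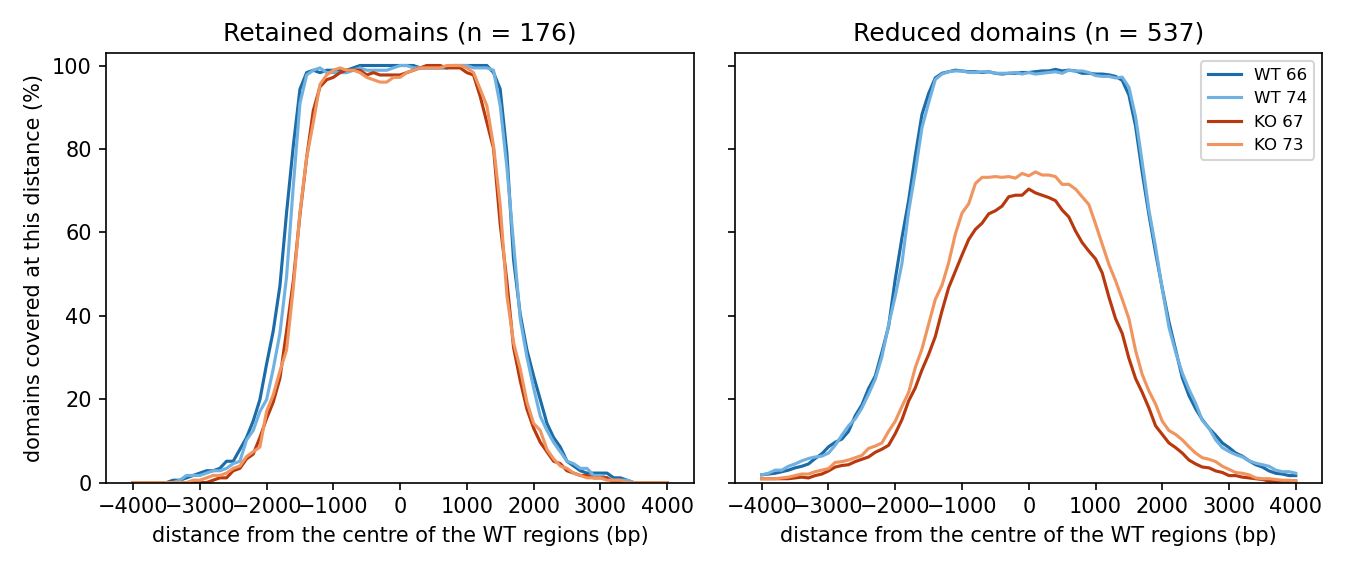
Share of domains covered by a called region (y, %) at each distance from the centre of the WT regions (x, bp), for the 176 retained (left) and the 537 reduced domains (right), 1 line per library. At the centre the retained domains were covered in 97.7% in KO 67 and 97.2% in KO 73 and the reduced ones in 70.4% and 73.6%. At 1500 bp to the right the retained domains were covered in 94.3% and 90.3% in WT and 61.9% and 66.5% in KO.

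Retained domains had higher scores in WT than reduced domains, by score and by score per kb. The authors' score of a region, whose scale is not stated, was read as a percentile of its own list, and a domain was given the score of its best region. The median percentile of the retained domains was 97.8 in WT 66 and 97.7 in WT 74, and that of the reduced domains was 95.2 and 95.9. By score per kb of region, the retained domains had a median percentile of 85.0 in WT 66 and 82.9 in WT 74, and the reduced domains 64.6 and 64.0. Regions found in all 4 libraries had 65.9 and 67.0.

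The share retained rose over the quartile groups of the broad domains by mean WT score per kb. It was 13 of 179 (7.26%, 95% interval 3.92 to 12.1) in the lowest quartile group, 11.8% (7.45 to 17.5) in the next, 28.7% (22.1 to 35.9) in the third, and 91 of 178 (51.1%, 43.5 to 58.7) in the highest. The median WT length fell over the same quartile groups from 3916 to 3552.5 bp. By score alone the shares were 11.7%, 23%, 23.6% and 40.4%, while the median WT length rose from 3537 to 4221.25 bp. By score the middle shares were close, with intervals of 17.1 to 29.9 and 17.6 to 30.5. Both measures contain the WT score, and the part of width in these shares was not tested.

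The share also rose when the score per kb came from 1 WT library and the ratio was taken to the other. Score per kb has a WT length as its divisor, and the WT lengths of a domain were close. The shorter was a median of 0.924 of the longer over all broad domains. The exchange therefore cannot separate the score from the length that both measures share. By score per kb in WT 66, a KO length of at least 0.8 of WT 74 was found in 5.59% (2.71 to 10) of the lowest and 54.5% (46.9 to 62) of the highest quartile group. By score per kb in WT 74 and length in WT 66, the shares were 7.26% (3.92 to 12.1) and 44.9% (37.5 to 52.6). At like width the retained domains also had the higher score per kb. Among domains with a WT mean from 3000 to below 3500 bp, the median percentile in WT 66 was 84.8 in the 95 retained and 68.1 in the 152 reduced domains. From 4000 to below 5000 bp, it was 85.9 in 29 retained and 61.9 in 145 reduced domains.

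**Figure D4:**
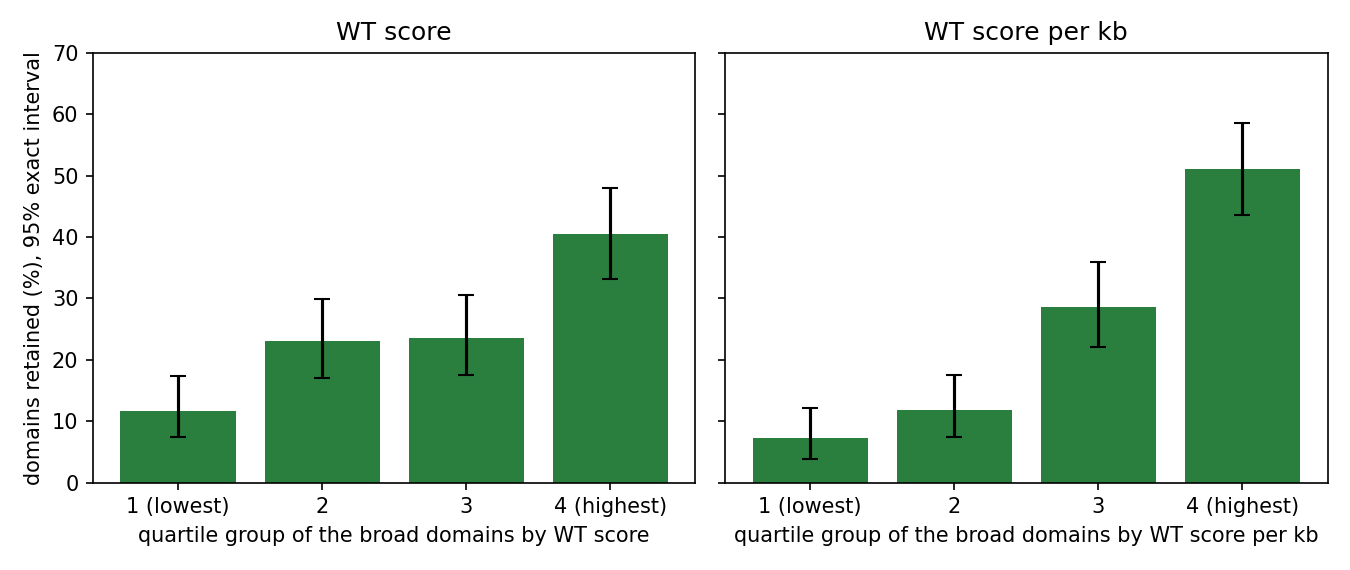
Share of the 713 broad WT domains that were retained (y, %) in each quartile group (x) by the authors' WT score (left) and by that score per kb (right), with 95% exact intervals as bars. The share ran from 11.7% to 40.4% by score and from 7.26% to 51.1% by score per kb.

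By score, the retained domains ranked near the top of the lists in both genotypes, and by score per kb they ranked lower in the null testes. Their median score percentile was 97.2 in KO 67 and 98.2 in KO 73, and the mean KO percentile exceeded the mean WT percentile in 86 of 176 domains, with a median difference of -0.03 percentile points. By score per kb, their median percentile was 85.0 and 82.9 in WT 66 and WT 74 and 71.3 and 75.3 in KO 67 and KO 73. That of the reduced domains with a region there was 64.6, 64.0, 55.7 and 56.5 in the same order. For the regions found in all 4 libraries it was 65.9, 67.0, 54.4 and 61.6. The lower rank per kb in KO was thus not particular to the retained domains. In the 525 reduced domains with a region in a KO library, the median difference in score percentile was -14.7 points and 13 were higher in KO. A percentile of at least 90 in all 4 lists was reached by 137 retained (77.8%) and 138 reduced domains (25.7%). The 537 reduced domains counted here include 53 with no region in a KO library, which could not reach it.

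The retained domains with the highest WT scores were not the widest, with 1 exception. The first was chr8:19728865-19732425, with WT lengths of 3365 and 3538 bp and KO lengths of 2936 and 3033 bp. The next lay on the same chromosome, chr8:19955543-19959771, with WT lengths of 3867 and 3559 bp and KO lengths of 3198 and 4013 bp. Per kb, the lowest score percentile of the first in any list was 99.91 (KO 67) and that of the next 99.76 (KO 73).

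Then followed chr4:145602749-145607514, with WT lengths of 3952 and 4449 bp and KO lengths of 4118 and 3452 bp, and the widest domain of chromosome 17 described above. The last of the 5 was chr9:20445532-20450445, with WT lengths of 4707 and 4639 bp and KO lengths of 4200 and 4303 bp. All 5 stood at or above the 99.6th percentile of score in each list. At the other end, chr9:62188399-62192615 had the lowest percentile of a retained domain in KO 67, at 53.5, and chr5:143576531-143580830 the lowest in WT 66, at 59.1, and in WT 74, at 66.3. Both had a gap in those libraries, where the score is that of the better of 2 regions. The lowest in KO 73, at 65.6, was chr11:3994283-3997838, which was 1 region in all 4 libraries.

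The share retained fell with WT width. It was 95 of 247 (38.5%, 32.4 to 44.8) for a WT mean from 3000 to below 3500 bp, 44 of 204 (21.6%, 16.1 to 27.9) from 3500 to below 4000 bp, 29 of 174 (16.7%, 11.5 to 23.1) from 4000 to below 5000 bp and 8 of 88 (9.09%, 4.01 to 17.1) from 5000 bp. The WT width is also the denominator of the ratio. Binned by WT 66 with the ratio taken to WT 74, the shares were 34.7%, 31.5%, 22.3% and 14.0% over the same bins. Of the 50 widest autosomal regions of WT 66 and of WT 74, 5 lay in retained domains in each list, while of the 50 widest of KO 67 and KO 73, 37 and 33 did. Of the 136 union regions with at least 3000 bp in both KO libraries, 87 were retained, 47 were reduced domains, and 2 were not broad in WT. The rule asks for long KO lengths, which by itself raises the counts of retained domains among wide KO regions.

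Retained domains were found on each of the 19 autosomes. Chromosome 11 held the most, 26 of its 75 broad domains (34.7%, 24 to 46.5). The share was highest on chromosome 19, with 14 of 33 (42.4%, 25.5 to 60.8), followed by chromosomes 11 and 1 (34.4%, 18.6 to 53.2). It was lowest on chromosome 18, with 1 of 15 (6.67%, 0.169 to 31.9). Chromosome 19 alone had an interval that lay above the share of all autosomes, 24.7%, and none lay below it. Position was not used by the rule, and these counts over 19 chromosomes were not tested.

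**Figure D5:**
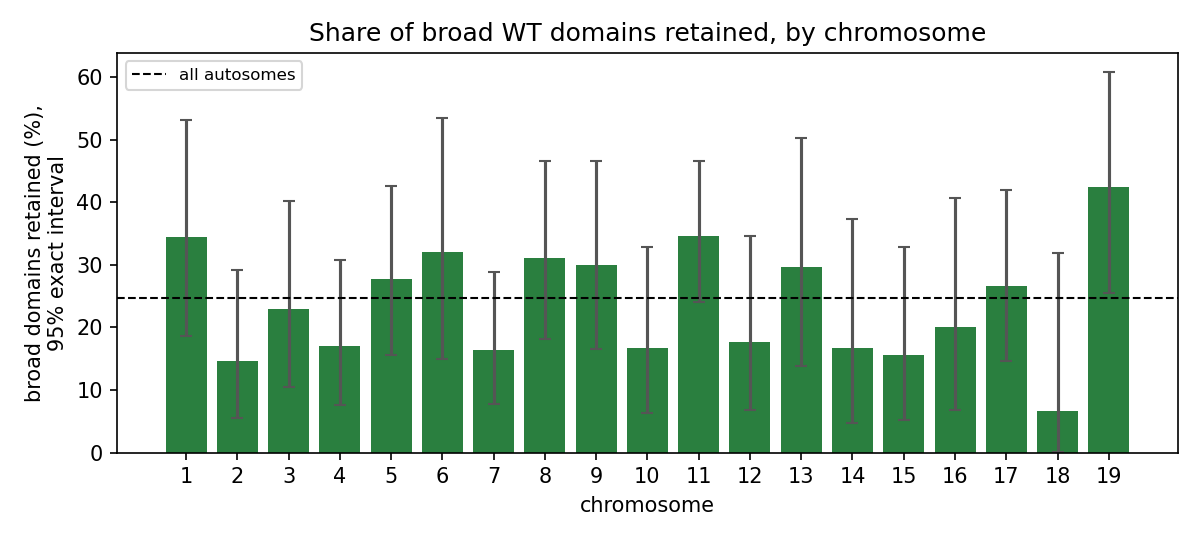
Share of the broad WT domains of each autosome that were retained (y, %), with 95% exact intervals as bars and the share over all autosomes (24.7%) dashed. Chromosome 19 stands highest at 42.4% and chromosome 18 lowest at 6.67%, and most intervals overlap.

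Some retained domains lay near each other. Within 1000 kb, 118 retained domains had another broad domain, and the nearest of these was retained in 40 (33.9%). For reduced domains with such a neighbour, it was retained in 72 of 359 (20.1%). Over all broad domains the share retained was 24.7%. Within 100 kb the counts were 14 of 37 (37.8%) for retained and 24 of 99 (24.2%) for reduced domains. Within 50 kb they were 8 of 25 (32%) and 18 of 68 (26.5%), and within 10 kb 0 of 2 and 2 of 15. The difference thus varied with the window and was not tested. Neighbours are counted from both sides, so these counts are not independent. The median distance to the nearest broad domain was 461750 bp from a retained and 460868 bp from a reduced domain.

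In 3 stretches, 3 or more retained domains followed each other with less than 1000 kb between them. Each stretch was set to begin and end at a retained domain, which by itself raises the share retained inside it. Over all broad domains the share was 24.7%. On chromosome 11 from 69222314 to 70470236, 6 of 10 broad domains were retained, with ratios from 0.825 to 1.01. On chromosome 19 from 4395633 to 6365546, 6 of 10 were retained, with ratios from 0.819 to 0.982, and the third widest retained domain is one of them. On chromosome 8 from 87499797 to 87960809, all 3 broad domains were retained, with ratios from 0.818 to 1.01.

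Shorter regions beside the retained domains were lost at a share within the interval of that of regions beside the reduced ones. Of the union regions within 50 kb of a retained domain only and found in both WT libraries, 22 of 198 (11.1%, 7.1 to 16.3) were absent from both KO libraries. The share was 74 of 691 (10.7%, 8.5 to 13.3) near reduced domains only and 12.4% (11.8 to 13.1) of the 10596 near neither. Where such regions were found in all 4 libraries, their median KO to WT ratio was 0.886 near retained, 0.879 near reduced and 0.893 near neither. These are other regions than the chosen ones, read in the same 4 libraries. Within 25 kb the shares were 11.2% (5.93 to 18.8) near retained, 13.8% (10.5 to 17.7) near reduced and 12.2% (11.6 to 12.9) near neither, and within 100 kb they were 8.74% (6.06 to 12.1), 9.65% (8.06 to 11.4) and 12.8% (12.2 to 13.5). The order of the 3 classes thus changed with the window, and no difference between them was tested.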

How the data were processed

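Bowtie and HOMER are named, with mm9 as the build, per the submitters' processing notes. For versions, settings, filters and any use of inputs, details were not given in the sources used here. Per library, the authors deposited 1 BED list, with a score per region of no stated scale. The lists held 14078 (WT 66), 14551 (WT 74), 10502 (KO 67) and 12497 regions (KO 73), with a narrowest region of 501 bp. Scores were whole multiples of a step per library (within 0.055 below a score of 100). If 1 step is 1 tag and lists were scaled alike, which is not stated, depth relative to KO 73 was 1.66, 1.04 and 4.46 in WT 66, WT 74 and KO 67. The absolute depth is unknown.

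Covered lengths were computed from the coordinates, with starts counted from 1, using Python 3.11.15, pandas 2.3.3 and SciPy 1.17.1. The merging step was checked on simulated lists and against bedtools 2.31.1. Scores were used only as percentiles within a list. The domains, lists and measures were chosen with earlier results of these data known. Named domains were the 8 widest in WT, the 8 of highest ratio, the 5 of highest WT score percentile, the 5 with the most unlike KO lengths and 3 on each side of the ratio threshold. The planned gene and sequence descriptions were not run, because no mm9 genome or gene positions were used. The 14 alternatives included leaving out each library.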

Additional observations from a re-analysis of the deposited data

How the results depend on the processing

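The 176 retained domains, 24.7% of the broad ones, and the median ratio of 0.663 over all broad domains depended most on the thresholds. With a minimum WT length of 2000 bp there were 1165 retained domains (44.2%, median ratio 0.774), and with 4000 bp there were 22 (11.2%, 0.573). With a ratio threshold of 0.7 there were 306 (42.9%), and with 0.9 there were 76 (10.7%). Asking 0.8 of each KO library gave 20.2%. Scaling lengths by the library medians of regions found in all 4 libraries took their median ratio from 0.883 to 1.03 (0.228 on the log2 scale). This turned its direction because the scaling sets it near 1. The 3000 bp minimum was then applied to scaled lengths, which left 509 broad domains against 713. Of the 509, 41.5% were retained, with a median ratio of 0.752 over the 509, and 105 of the 176 domains were kept. A domain of the 176 could thus drop out by its scaled WT length, and the median scaled ratio of the 176 was 1.04. Leaving out 1 library in turn gave 189 to 214 domains, 22.2% to 29.6% and median ratios of 0.630 to 0.692, with the highest share without KO 67. Dropping regions of low score, equal list lengths, merging over 500 bp and the longest single region gave 161 to 177 domains. No paired analysis was possible because the genotypes share no replicate number. Single domains were not tested, because the rule had used their lengths, and the absolute depth is unknown.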

Other observations

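The X and Y chromosomes, which the rule left out, held 0 union regions with a covered length of at least 3000 bp in both WT libraries, so no retained or reduced domain was left out with them.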
